A study of Mus musculus with 2 samples.

Results

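The genes described here build the centromere and the kinetochore, or belong to the spindle checkpoint that watches over it. They were chosen by name from a list of 36 symbols, and 35 of them had a row among the 33224 gene symbols of the deposited table (Ska3 had none). RNA-sequencing covered livers of male C57BL/6 mice, labelled as 4 months old, 48 hr after partial hepatectomy (PH), with 1 library from wild type (WT) and 1 from PPARbeta-null (KO) mice. Both genotypes had undergone PH, and libraries of livers without surgery were not analysed here. The KO mice lack PPARβ, a nuclear receptor encoded by Ppard, and the labels name no driver that would limit the loss to a cell type. With 1 library per genotype there is no replicate, so no value carries an error between mice and no difference between genotypes could be tested. How many mice gave RNA to a library is not given in the sources used here, and the libraries carry names of different sequencing lanes, so lane and genotype cannot be told apart.

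Chromosomes are pulled apart in mitosis through kinetochores, protein assemblies that form at the centromere of each sister chromatid. The histone H3 variant CENP-A marks the centromere, and an inner network of CENP proteins binds to it. The Mis12 complex joins the inner and the outer kinetochore, where the Ndc80 and Ska complexes hold on to spindle microtubules. Kinetochores without microtubules recruit the Bub and Mad proteins, which hold back the anaphase-promoting complex until every chromosome is attached. In an adult liver at rest few hepatocytes divide, and PH is a classical way of bringing them into the cell cycle together. Many of these genes are transcribed mainly in the G2 and M phases and have little mRNA in resting cells.

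The values are FPKM, that is, fragment numbers divided by exon length and by the size of the library, a level per length that allows genes to be compared with each other. The low values of genes with 1 exon pointed to about 58.7 fragments per kilobase of effective transcript length (the annotated length less 200 nt) at an FPKM of 1 in the WT library, and about 65.8 in the KO library. From this depth and the longest annotated transcript, the fragments behind each value were estimated, and each WT/KO ratio was given a 95% counting interval (exact binomial). Such intervals cover counting error only, and copies made by PCR are not independent molecules. Ppard measured 2.67 FPKM in the WT and 2.42 in the KO liver, a ratio of 1.10 (0.969 to 1.25), so the level over the whole gene did not tell the libraries apart and is no check of the labels. Of the hepatocyte markers, 9 of 10 had a usable row (that of Alb carried the HIDATA status, given to loci with too many fragments), and their summed FPKM was 15793 in the WT and 15023 in the KO liver. The sum hides differences in both directions, since Ass1 (2672 and 983) and Cps1 (1597 and 743) were lower in KO by more than 2-fold and Cyp2e1 (1039 and 2319) was higher.

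Most centromere, kinetochore and checkpoint genes were far lower in the regenerating KO liver. Of the 35 genes, 34 had a lower FPKM in KO, against 74.8% of all 15727 genes averaging an FPKM of 0.1 or more. A difference of more than 2-fold toward lower KO was reached by 31 of the 35 genes, against 13.4% of all genes, and none was higher in KO by more than 2-fold, against 2.79% of all genes. More than 4-fold lower were 26 genes (4.36% of all genes) and more than 10-fold lower were 22 (1.88% of all genes). Among the 11723 genes averaging an FPKM of 1 or more, 75.6% were lower in KO, 8.69% by more than 2-fold, 2.92% by more than 4-fold and 1.33% by more than 10-fold, and 1.77% were higher by more than 2-fold. All 35 genes passed the filter on mean FPKM, so that none was left out of these counts.

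For the 35 genes the median log2 KO/WT, computed on FPKM + 0.1, was -3.52, beside -0.25 over all genes averaging an FPKM of 0.1 or more. Without a pseudocount, and with genes listed at 0 in KO set to their lower bound, the median WT/KO ratio was 16.1. In the WT library the levels ran from 0.911 (Ska1) to 22.3 (Cenpb) with a median FPKM of 4.59. In the KO library they ran from 0 to 23.6 with a median of 0.270, and 23 genes were below an FPKM of 1. The ratios left a gap, since 9 genes lay at or below 3.50 and the other 26 at or above 9.10. Of these 9, Cenpb, Cenpo, Cenpt, Mis12 and Bub3 have assembled loci that take in other coding genes. Of the 26, Cenpk, Cenpp, Cenpq, Zwilch and Sgol2 do. The counts describe 1 pair of libraries, and in a bulk sample fewer dividing cells and less mRNA per dividing cell cannot be told apart.

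**Figure D1:**
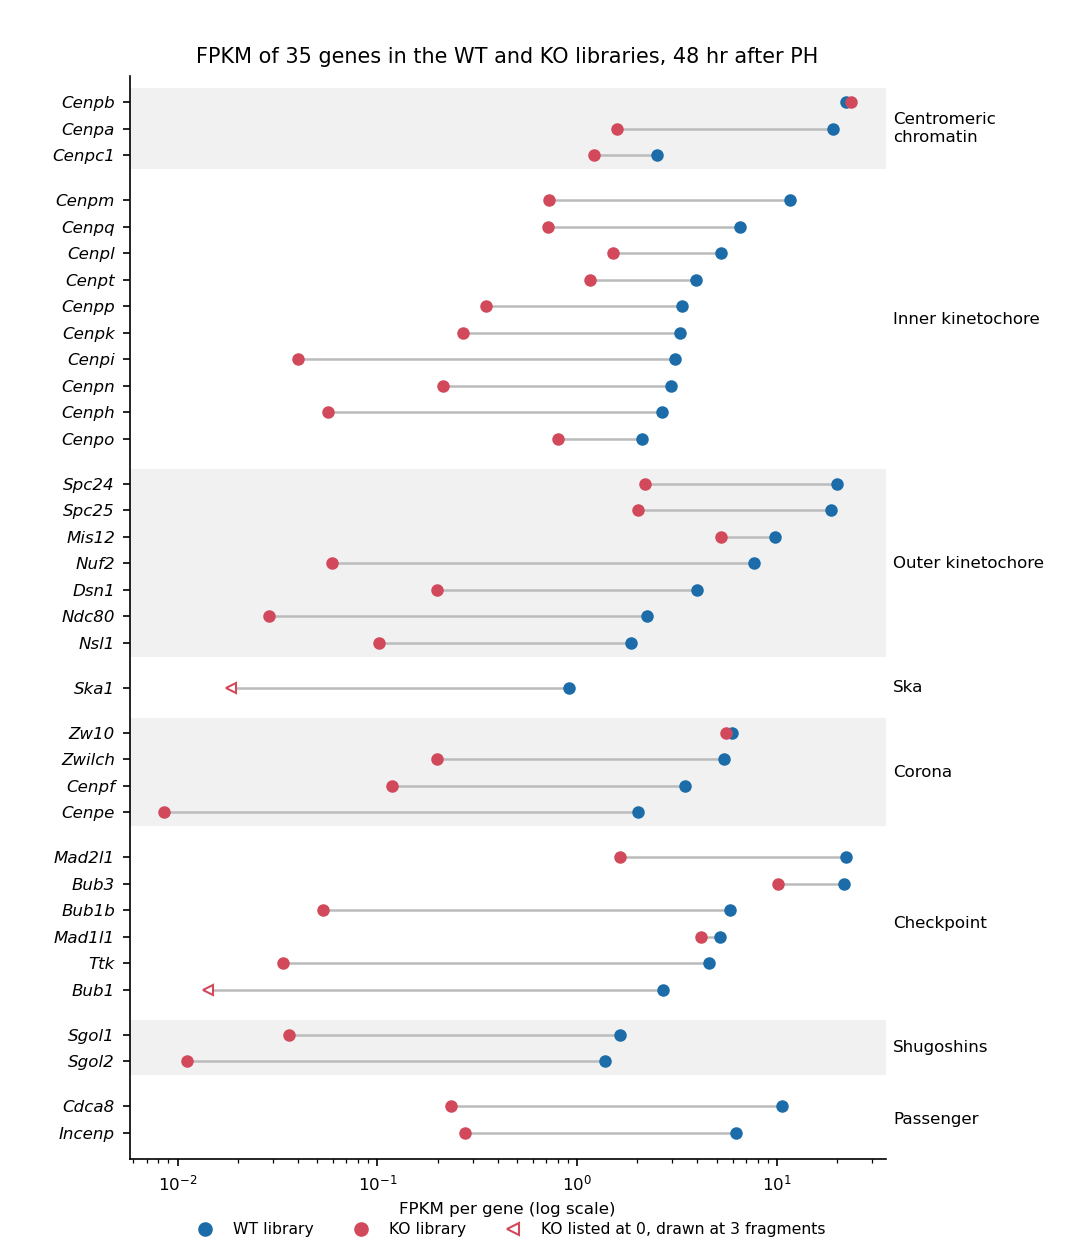
FPKM (log scale) of each of the 35 genes in the WT (blue) and KO (red) library, grouped by role and ordered within a group by WT level; open triangles mark genes listed at 0 in KO, drawn at the level of 3 fragments. Most red points lie far to the left of the blue ones, whereas those of Cenpb and Zw10 nearly coincide.

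The DNA just upstream of these genes can be read from RefSeq (GRCm38.p6), which gave promoter windows of 300 bases, 250 before and 50 after the transcription start, for 30 of the 35 genes. The windows printed are those of the 3 genes with the largest fold among those that have a window and reached an FPKM of 0.1 in each library (Spc24, Nsl1, Ska1, Zwilch and Incenp have none), and of the pair of genes with ratios nearest 1. Capitals mark 3 kinds of motif searched on both strands. These are the cell cycle genes homology region (CHR, as TTTGAA or TTCGAA), the E2F site (as TTTGGCGC, TTTCCCGC, TTTGCCGC, TTTCGCGC, TTTGGCGG, TTTCCCGG or GGCGGGAA) and the CCAAT box. The first group, far lower in KO, has Cdca8 (chr4:124936868-124937167, minus strand), Cenpf (chr1:189688037-189688336, minus strand) and Dsn1 (chr2:157007026-157007325, minus strand).
Cdca8: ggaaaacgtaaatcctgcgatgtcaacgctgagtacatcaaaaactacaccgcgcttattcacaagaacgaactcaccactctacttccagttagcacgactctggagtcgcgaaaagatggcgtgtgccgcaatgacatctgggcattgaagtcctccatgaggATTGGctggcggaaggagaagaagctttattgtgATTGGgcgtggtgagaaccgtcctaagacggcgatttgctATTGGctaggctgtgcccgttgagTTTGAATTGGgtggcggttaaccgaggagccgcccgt
Cenpf: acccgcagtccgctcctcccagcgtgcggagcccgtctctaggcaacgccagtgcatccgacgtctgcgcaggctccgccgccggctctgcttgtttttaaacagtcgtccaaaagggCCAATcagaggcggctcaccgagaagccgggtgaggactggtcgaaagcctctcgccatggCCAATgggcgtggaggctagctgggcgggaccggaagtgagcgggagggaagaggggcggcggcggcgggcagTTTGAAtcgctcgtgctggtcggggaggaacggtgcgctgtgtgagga
Dsn1: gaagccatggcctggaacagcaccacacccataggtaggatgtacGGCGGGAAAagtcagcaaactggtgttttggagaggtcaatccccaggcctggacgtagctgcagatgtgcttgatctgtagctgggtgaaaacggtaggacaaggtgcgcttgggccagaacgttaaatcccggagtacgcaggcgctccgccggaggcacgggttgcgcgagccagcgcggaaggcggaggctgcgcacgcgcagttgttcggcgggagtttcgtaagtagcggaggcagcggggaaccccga
The second group, with close levels in both libraries, has Cenpb (chr2:131180018-131180317, minus strand) and Zw10 (chr9:49055331-49055630, plus strand).
Cenpb: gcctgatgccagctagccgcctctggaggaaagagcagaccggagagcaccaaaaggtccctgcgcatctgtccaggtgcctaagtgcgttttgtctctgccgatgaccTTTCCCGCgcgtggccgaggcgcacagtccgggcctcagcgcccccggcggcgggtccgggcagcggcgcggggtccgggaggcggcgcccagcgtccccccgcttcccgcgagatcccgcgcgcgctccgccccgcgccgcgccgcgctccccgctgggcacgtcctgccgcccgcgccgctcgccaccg
Zw10: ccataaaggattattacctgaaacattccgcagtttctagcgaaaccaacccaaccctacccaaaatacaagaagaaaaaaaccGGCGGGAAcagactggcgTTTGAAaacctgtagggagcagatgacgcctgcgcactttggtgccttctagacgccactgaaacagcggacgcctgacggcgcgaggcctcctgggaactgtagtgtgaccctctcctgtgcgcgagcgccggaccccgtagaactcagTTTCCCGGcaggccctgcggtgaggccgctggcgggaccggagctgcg

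In the Cenpf window a CHR starts at position 3 after the start site, behind a pair of CCAAT boxes at -132 and -71. The Cdca8 window has a CHR at position 14 that overlaps a CCAAT box on the other strand, and 3 further CCAAT boxes upstream. In Dsn1 the capitals are a pair of E2F spellings that overlap on opposite strands. Zw10, which hardly differed between the libraries, also has a CHR, at -148, and a pair of E2F spellings. Over all 35 windows of the 30 genes, 42.9% held a CHR, 25.7% an E2F spelling and 68.6% a CCAAT box. The shares over all 32851 windows were 19.2%, 5.52% and 37.4%. Among the 10845 windows of genes averaging an FPKM of 1 or more, which have a GC content close to that of these genes (median 60.3% against 59%), they were 14.4%, 9.47% and 38.2%. The 21 windows of genes more than 10-fold lower in KO held a CHR in 47.6%, an E2F spelling in 19% and a CCAAT box in 81% of cases, whereas in the other 14 windows the shares were 35.7%, 35.7% and 50%. A match of letters describes the window and does not show that a factor binds there.

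Among the proteins next to centromeric DNA, the levels of Cenpa and Cenpb parted. Cenpa (chromosome 5, 30969150 to 30977200 on NCBI37), which encodes the histone that marks the centromere, measured 19.2 FPKM in the WT and 1.58 in the KO liver. It was 12.1-fold lower in KO (10.0 to 14.7). Cenpc1, whose product links CENP-A chromatin to the outer kinetochore, measured 2.50 FPKM in the WT and 1.21 in the KO liver, a ratio of 2.06 (1.76 to 2.43) whose interval reached below 2. Cenpb encodes the protein that binds a short box in the satellite repeats, and its row, shared with Spef1, was at 22.3 in the WT and 23.6 in the KO liver. Cenpb was thus the gene with the highest level of the 35 in both libraries, and the only member with a higher value in KO, with a WT/KO ratio of 0.946 (0.915 to 0.979). Both statements rest on a row whose assembled locus spans 71.2 kb, against 4.89 kb for the annotated gene, and takes in 5 other coding genes, Cdc25b and Hspa12b among them, which also have rows of their own.

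All 10 genes of the inner kinetochore network were lower in KO by more than 2-fold, and 5 of them by more than 10-fold. The genes of the CENP-H, -I, -K and -M group, which help to bring the outer kinetochore to the centromere, were all lower by more than 10-fold. Cenpi measured 3.08 FPKM in the WT and 0.0402 in the KO liver, a ratio of 76.6 (39.6 to 183), and Cenph 2.67 and 0.0565, a ratio of 47.3 (17.7 to 172). The KO values rested on an estimated 8.22 and 3.90 fragments, and their intervals are wide. Cenpm was at 11.7 (WT) and 0.724 (KO), 16.1-fold lower (11.9 to 21.9), and Cenpk at 3.27 and 0.270 (12.1-fold, 7.5 to 19.9).

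Cenpl and Cenpn, whose products act together on CENP-A nucleosomes, differed in their ratios. Cenpn was at 2.95 in the WT and 0.212 in the KO liver, a ratio of 13.9 (8.94 to 22.4), and Cenpl at 5.26 and 1.5, a ratio of 3.50 (3.14 to 3.92). Within the CENP-O, -P and -Q group, Cenpp had 3.34 and 0.351 and Cenpq 6.5 and 0.715, ratios of 9.50 (6.03 to 15.7) and 9.10 (7.22 to 11.6). Cenpo, of the same group, was at 2.10 in the WT and 0.799 in the KO liver, a ratio of 2.63 (2.24 to 3.09). Cenpt, whose protein reaches from the DNA to the Ndc80 complex, had 2 rows with summed values of 3.93 (WT) and 1.16 (KO), a ratio of 3.39 (2.76 to 4.22). For the subunit pairs of Cenpl and Cenpn, and of Cenpo with Cenpp or Cenpq, the counting intervals did not overlap. The assembled loci of Cenpo, Cenpp, Cenpq and Cenpt are wider than the annotated genes and take in other coding genes. That of Cenpo spans 104 kb, against 38.3 kb for the gene, and that of Cenpp 232 kb, against 189 kb. The intervals do not cover errors from this.

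The outer kinetochore showed such a split within a complex. The Ndc80 complex is a rod whose Ndc80 and Nuf2 end grips the microtubule, while its Spc24 and Spc25 end sits on the kinetochore. Ndc80 (chromosome 17, 71845440 to 71876197) measured 2.24 FPKM in the WT and 0.0288 in the KO liver, and Nuf2 7.69 and 0.0590. Their ratios were 77.8 (28.5 to 273) and 130 (65.0 to 272). The genes of the other end kept a visible level in KO. Spc24 was at 19.9 in the WT and 2.19 in the KO liver, and Spc25 at 18.7 and 2.01, with ratios of 9.12 (7.77 to 10.8) and 9.31 (8.10 to 10.8). The intervals of the 2 ends did not overlap. In the WT library the highest of the 4 levels was 8.91 times the lowest, and in KO it was 76.0 times the lowest. An estimated 3.79 fragments stood behind the KO value of Ndc80, against 165 for Spc24.

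The Mis12 complex joins the inner and the outer kinetochore. Dsn1, in a row shared with Gm14276, was at 3.98 in the WT and 0.200 in the KO liver, a ratio of 19.9 (14.0 to 29.4). Nsl1 was at 1.86 and 0.102, a ratio of 18.2 (11.2 to 30.0). Mis12 itself stood apart from these partners, with 9.78 FPKM in the WT and 5.27 in the KO liver and a ratio of 1.85 (1.71 to 2.01), just short of 2-fold. Its assembled locus spans 20.2 kb, against 7.76 kb for the annotated gene, and takes in Derl2, which has a row of its own. The Ska complex helps the Ndc80 complex to stay on shortening microtubules, and Ska1 was the least abundant of the 35 genes in WT, at 0.911. It was listed at 0 in KO, where 3 fragments would have given 0.0185, so it was at least 49.4-fold lower against that floor, a bound that leaves out the counting error of the WT value.

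**Figure D2:**
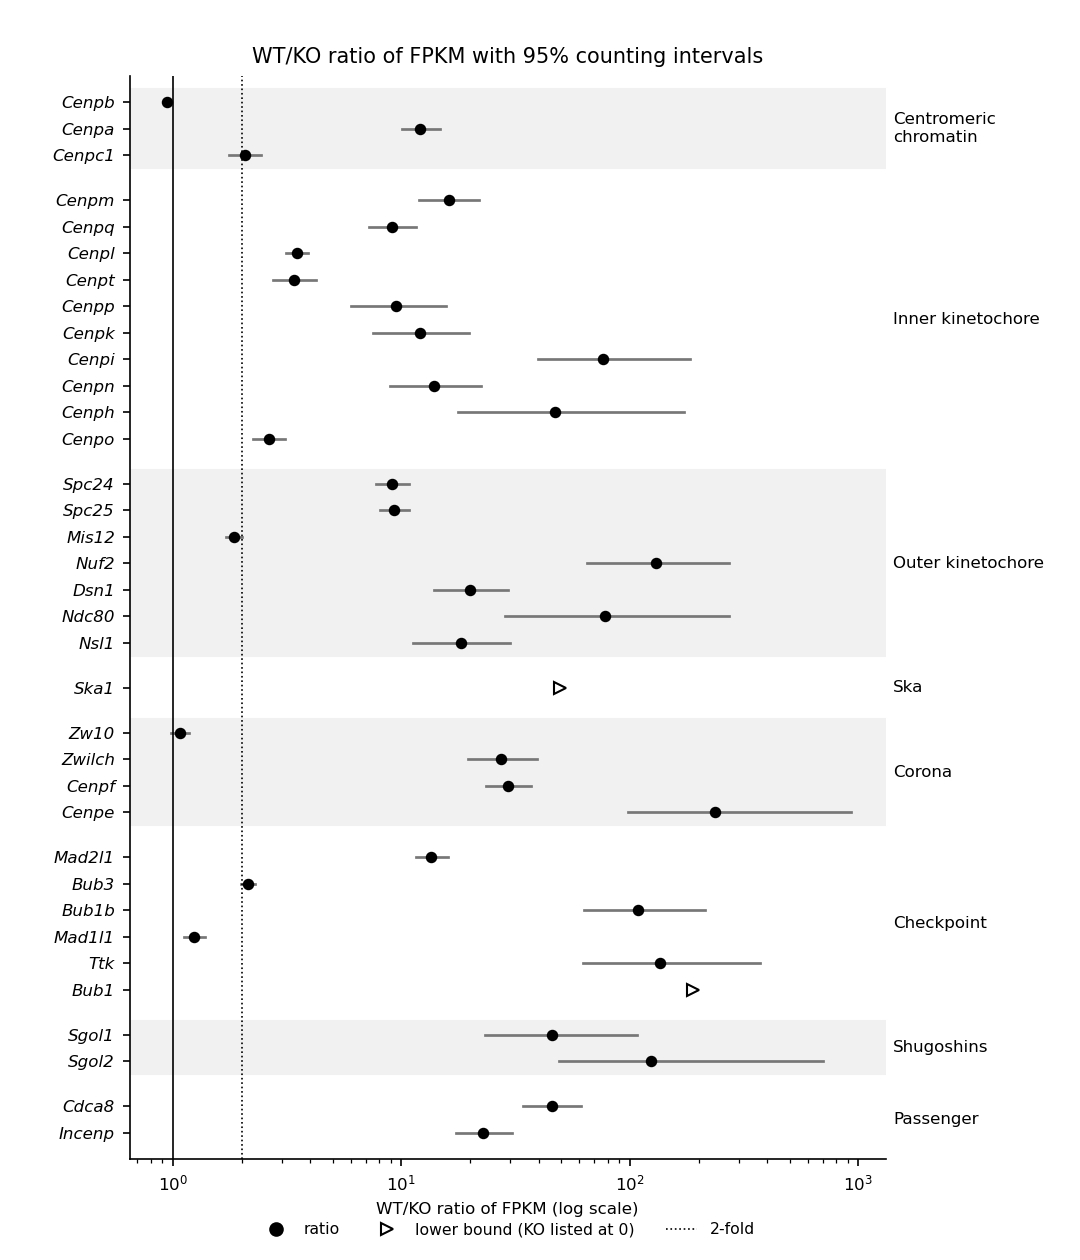
WT/KO ratio of FPKM (log scale) of each of the 35 genes with its 95% counting interval, in the same order and grouping as the plot of levels; open triangles are lower bounds for genes listed at 0 in KO, the solid line marks equal levels and the dotted line 2-fold. The points of Cenpb, Zw10, Mad1l1 and Mis12 lie left of the dotted line, and within the outer kinetochore Ndc80 and Nuf2 lie to the right of Spc24 and Spc25.

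The corona is the outermost layer of a kinetochore that has no microtubules yet. Cenpe, a kinesin that carries chromosomes along microtubules, had the largest measured ratio, with 2.02 in the WT and 0.00854 in the KO liver, 237-fold (98.5 to 931) on an estimated 4.28 fragments in KO. Cenpf, a large protein that binds microtubules and dynein regulators, was at 3.45 and 0.118, a ratio of 29.3 (23.5 to 36.8). Zwilch and Zw10 encode subunits of the same complex, which brings dynein and the Mad proteins to kinetochores. Zwilch was at 5.41 in the WT and 0.199 in the KO liver, 27.2-fold lower (19.5 to 39.2). Zw10, whose protein also serves traffic between the endoplasmic reticulum and the Golgi, was at 5.96 in the WT and 5.54 in the KO liver, a ratio of 1.08 with an interval from 0.982 to 1.18 that includes 1. Its direction turned to higher in KO once the libraries were scaled to equal upper quartiles or centred on the median of expressed genes.

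Among the spindle checkpoint genes, the lowest KO levels were those of Bub1, Ttk and Bub1b. Bub1 (chromosome 2, 127626858 to 127657601), a kinase that recruits other checkpoint proteins, was at 2.68 in WT and listed at 0 in KO, at least 189-fold lower against a floor of 3 fragments, again without the counting error in WT. Ttk, the kinase that starts the checkpoint signal, was at 4.59 in the WT and 0.0338 in the KO liver, a ratio of 136 (62.2 to 372). Bub1b, which encodes BubR1 of the inhibitory complex, was at 5.80 in the WT and 0.0533 in the KO liver, a ratio of 109 (62.9 to 214). These 3 genes had an estimated 506 to 1181 fragments in WT and 0 to 12.2 in KO.

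Mad2l1, whose protein captures Cdc20, was the most abundant of the checkpoint genes in WT. It was at 22.2 in the WT and 1.64 in the KO liver, a ratio of 13.6 (11.6 to 16), the KO value resting on an estimated 164 fragments. Bub3, the adaptor that carries Bub1 and BubR1 to kinetochores, was at 21.6 and 10.2, a ratio of 2.13 (1.98 to 2.28). The assembled locus of Bub3 spans 3010 kb, against 11.5 kb for the annotated gene. It takes in 32 other coding genes, which also have rows of their own. Mad1l1, which encodes the anchor of Mad2, was at 5.21 in the WT and 4.19 in the KO liver, a ratio of 1.24 (1.12 to 1.38). The rows of Bub3 and Mad1l1 thus kept more of the WT level than those of Bub1, Bub1b and Mad2l1, whose products they bind. For Bub3 this rests on the wide locus. With the libraries scaled to equal upper quartiles, Cenpc1 and Bub3 fell short of 2-fold, and 29 of the 35 genes remained beyond it.

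Shugoshins shield the cohesin at the centromere until anaphase. Sgol1 measured 1.64 FPKM in the WT and 0.0359 in the KO liver, a ratio of 45.7 (23.2 to 108), and Sgol2 1.38 and 0.0112, a ratio of 124 (48.9 to 701). The chromosomal passenger complex corrects faulty attachments. Its scaffold Incenp was at 6.22 in the WT and 0.273 in the KO liver, 22.8-fold lower (17.4 to 30.7), and Cdca8, which encodes Borealin, at 10.6 and 0.234, 45.4-fold lower (34.0 to 61.2). Members of these 2 groups were thus lower in KO by more than 10-fold without exception, against 1.88% of all genes. The assembled locus of Sgol2 spans 70.8 kb, against 29.9 kb for the annotated gene, and takes in Kctd18.

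The plot of log2 values sets the 35 genes in the spread of all genes. Centring on the median of expressed genes took the median of all genes averaging an FPKM of 1 or more from -0.24 to 0. The median of the 35 genes went from -3.52 to -3.34. Cenpa, the gene at that median before centring, went from -3.52 to -3.29.

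**Figure D3:**
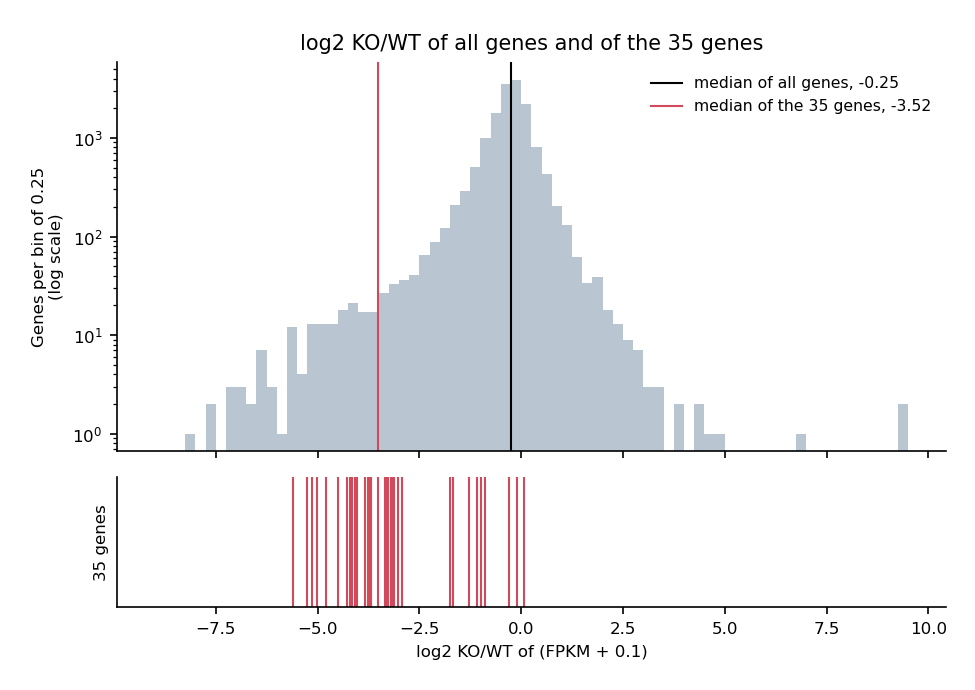
Upper panel, number of genes (log scale) per bin of log2 KO/WT of FPKM + 0.1 for the 15727 genes averaging an FPKM of 0.1 or more, with the medians of all genes (-0.25) and of the 35 genes (-3.52) as lines; lower panel, the value of each of the 35 genes on the same axis. Most of the 35 genes lie in the left tail, and a few lie near the median of all genes.

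A further 26 kinetochore, centromere and passenger genes outside the list of 36 all had a row. Of these, 19 were lower in KO by more than 2-fold (13.4% of all genes) and 13 by more than 10-fold (1.88% of all genes). Their median log2 KO/WT was -2.99. The largest ratios among genes that reached an FPKM of 0.1 in each library were those of Birc5, Cdc20 and Aurkb. Birc5, which encodes Survivin of the passenger complex, was at 25.5 in the WT and 0.111 in the KO liver (229-fold, 152 to 361). Cdc20, the checkpoint's target, was at 33.6 and 0.161 (209-fold, 129 to 357), and the passenger kinase gene Aurkb at 10.5 and 0.118 (89.5-fold, 51.4 to 159). The 3 genes of this list with the highest mean over both libraries, a choice that favours genes with a high KO level, were Hjurp, Zwint and Stra13. Hjurp, a chaperone of CENP-A, was at 48.2 in the WT and 49.6 in the KO liver, Zwint at 39.6 and 37.6 and Stra13, a CENP-T partner, at 24.9 and 20.6. The assembled locus of Hjurp spans 162 kb, against 18.5 kb for the annotated gene, and takes in Trpm8 and Heatr7b1. That of Stra13 spans 14.2 kb, against 2.80 kb, and takes in Lrrc45 and Rac3. That of Cdc20 takes in Elovl1. None of the 26 genes was higher in KO by more than 1.5-fold, a cut-off for which no share of all genes was computed. At 2-fold that share was 2.79%.

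Some partners of the complexes above that are among these 26 genes were picked out after their values were seen. Kntc1, which works beside Zwilch and Zw10 in the same complex, was at 2.15 in the WT and 0.00721 in the KO liver (298-fold, 109 to 1551), the latter on an estimated 3.21 fragments. Pmf1, the partner of Mis12, was at 29.7 in the WT and 5.98 in the KO liver (4.97-fold, 4.40 to 5.65). Casc5, which binds the Mis12 complex and carries the Bub proteins, was at 1.67 and 0.0101 (165-fold, 71.5 to 517). Ska2, of the Ska complex, was at 2.96 in the WT and 0.622 in the KO liver (4.76-fold, 3.88 to 5.88). Itgb3bp, of the inner kinetochore, was at 3.72 and 1.99 (1.87-fold, 1.65 to 2.12). Its assembled locus spans 228 kb, against 170 kb for the annotated gene, and takes in other coding genes.

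Genes of other chromosome proteins served for comparison. All 6 MCM helicase genes, which act in S phase, were lower in KO by more than 2-fold, with ratios from 4.89 to 24.6 and a median of 8.39. Of the 8 condensin genes 7 were lower by more than 2-fold (median 13.3), and of the 10 cohesin genes 2 were (median 1.35). Of all genes, 13.4% were lower by more than 2-fold, and the 20% of the cohesin genes lies near that share. The differences between these lists were not tested.

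**Figure D4:**
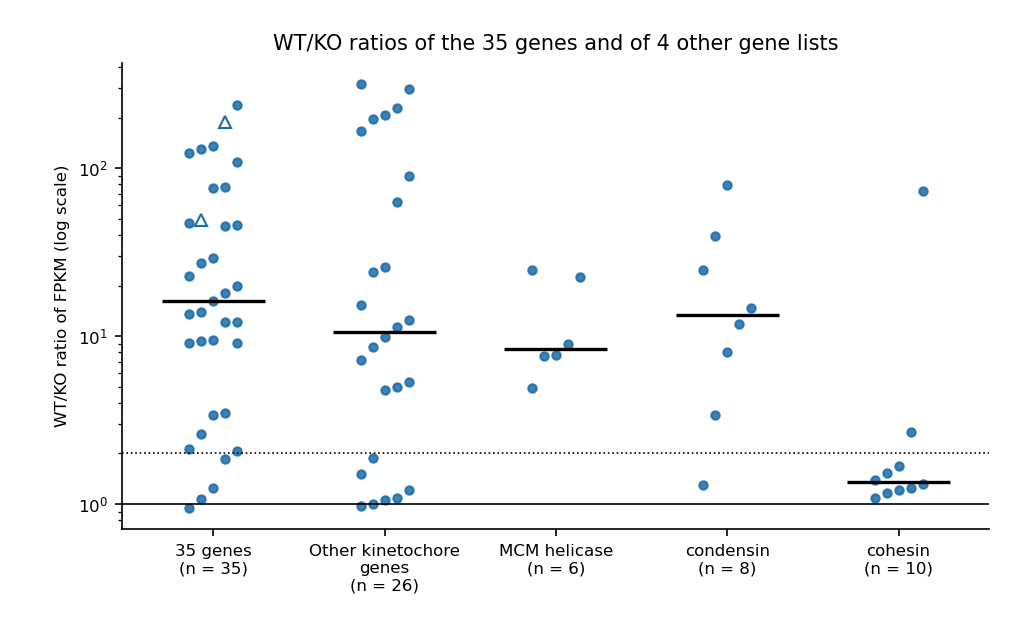
WT/KO ratio of FPKM (log scale) of the 35 genes, the 26 other kinetochore genes and the MCM helicase, condensin and cohesin genes; each point is a gene, open triangles are lower bounds for genes listed at 0 in KO, thick bars are medians, the solid line marks equal levels and the dotted line 2-fold. The medians are 16.1, 10.6, 8.39, 13.3 and 1.35.

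The summed markers of cells other than hepatocytes were lower in the KO library for each of the 7 cell types listed, though not every marker was. Of all genes averaging an FPKM of 0.1 or more, 74.8% were lower in KO as well. Summed FPKM was 59.7 in the WT and 37.3 in the KO liver over 7 macrophage markers, 50.3 and 36.4 over 7 endothelial markers and 39.4 and 20.1 over 7 stellate cell markers. For 6 cholangiocyte markers it was 30.1 and 26.2, and for 8 erythroid markers, with Gata1 at 0 in both libraries, 296 and 252. The 8 lymphocyte markers, none above 0.155 in either library, summed to 0.717 and 0.398. The 8 neutrophil markers summed to 12.9 and 6.93, mostly from S100a8 (6.68 and 3.33) and S100a9 (6.11 and 3.48). Ly6g, Mpo and Camp were at 0 in both. Single markers differed more than the sums, with Col1a1 at 8.56 and 1.75 and Acta2 at 5.57 and 1.26 among the stellate cell markers, and Krt19 at 1.72 and 0.559 and Krt7 at 1.12 and 0.360 among those of cholangiocytes. Higher in KO were the erythroid Alas2, at 20.6 and 37.5, the macrophage marker Marco, at 6.58 and 7.37, and the cholangiocyte marker Cldn7, at 0.323 and 0.502. The WT/KO ratios of the sums ran from 1.15 to 1.96. Such sums set no limit on the ratios of the 35 genes, and the part of the other cell types in the result was not tested.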

How the data were processed

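Per the labels and the study's methods, the authors aligned reads to NCBI37 (mm9) with TopHat 2.0.0, assembled transcripts with Cufflinks 1.3.0 and estimated 1 FPKM per locus and library with Cuffdiff. Sources differ on whether reads were single or paired end. The deposited FPKM table held 38016 loci. Its fold change, statistic, p-value and q-value columns are the authors' comparison and were not used. The 21 loci marked HIDATA were left out, rows of a symbol were summed, and each symbol of a joint row (850 loci) received its value. Genes had to have a mean FPKM of at least 0.1. To every FPKM 0.1 was added before taking log2, so changes of low genes come out too small. Counts of genes used FPKM ratios without it. Depth was read from 56 low values per library, within a set range around that of 1 fragment, among 1243 genes with 1 exon of at least 1000 nt, the KO library being 1.12 times as deep. It is approximate. A level of 0 was bounded by 3 fragments per library. Coordinates are on NCBI37 (GENCODE vM1), counted from 1, and promoters on GRCm38.p6. Of the 35 loci, 13 extend more than 1 kb beyond the annotated gene, that of Bub3 over 3010 kb, where neighbouring genes have rows of their own. The others are those of Cenpb, Cenpk, Cenpo, Cenpp, Cenpq, Cenpt, Spc25, Mis12, Dsn1, Zwilch, Sgol2 and Cdca8. Members and lists were chosen with earlier results of these data known. Named were all members, Ppard and, of the other kinetochore genes, the 3 with the highest mean FPKM, the 3 with the largest fold lower in KO that reached an FPKM of 0.1 in each library, and any higher in KO by more than 1.5-fold. Steps ran in Python 3.11.15 (pandas 2.3.3, numpy 2.4.6), intervals in scipy 1.17.1 and figures in matplotlib 3.10.9. The 2-fold call and the intervals were tested on counts simulated with the same depth and transcript lengths. Other steps were not tested in that way. Alternatives covered pseudocount, filter, scaling, row handling and fold.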

Additional observations from a re-analysis of the deposited data

How the results depend on the processing

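No paired analysis was possible because each genotype has 1 library, and for the same reason no replicate could be left out. The count of 31 genes lower in KO by more than 2-fold ranged from 26 to 32 over the filters, scalings, ways of handling rows and folds from 1.5 to 4, and no gene became higher in KO by more than 2-fold under any of them. A pseudocount of 1 FPKM took the median log2 KO/WT over the 35 genes to -1.75 and that of the 26 other kinetochore genes to -1.51, and one of 0.01 FPKM took the former to -3.99. In an alternative chosen after seeing the data, genes whose locus starts and ends within 1 kb of the annotated gene gave 20 of 22 genes, and 12 of 15 other kinetochore genes, lower by more than 2-fold, fewer genes being tested. Of 243 values of single genes under the alternatives, 2 changed sign, both of Zw10. In all, 52 values moved by more than the distance from the middle to the end of the gene's counting interval (log2 scale). With a pseudocount of 1 FPKM, for example, Ndc80 went from -4.18 to -1.65. Depth limits genes with few KO fragments: 2 of the 35 genes, Ska1 and Bub1, were listed at 0, and Sgol2, Ndc80, Cenph and Cenpe rested on an estimated 3.49 to 4.28.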

Other observations

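Within the cohesin list, chosen for comparison with the kinetochore genes, Esco2 stood apart after its values were seen. Esco2 encodes the acetyltransferase that locks cohesin onto sister chromatids during S phase, and its FPKM of 16.6 in the WT liver stood against 0.226 in the KO liver, 73.5-fold lower. The ring subunits Smc1a and Smc3 had ratios of 1.22 and 1.67, and Nipbl, the loader, one of 1.09. Rad21, the subunit cut at anaphase, was at 30.2 in the WT and 11.3 in the KO liver, a ratio of 2.67.

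Among the condensin genes most were lower in KO, and the genes named were again picked out after their values were seen. Ncapg, of condensin I, was at 5.64 in the WT and 0.0713 in the KO liver, a ratio of 79.1, and Ncapg2, its counterpart in condensin II, had a ratio of 39.6. Ncaph2, also of condensin II, was at 26.5 and 20.6, a ratio of 1.29, and was the only condensin gene of the 8 that did not pass 2-fold.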
